A study of Mus musculus with 24 samples.

Results

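The miR-378 family was followed through the reproductive cycle of the mouse mammary gland. Its members were the 5 mature miRNAs of that name in the deposited table of 1009 miRNAs, mmu-miR-378a-3p, mmu-miR-378a-5p, mmu-miR-378b, mmu-miR-378c and mmu-miR-378d, called miR-378a-3p and so on from here. The rule takes them by name, and the family itself was picked with earlier results of these data known. Small RNA had been sequenced from abdominal and inguinal glands, taken whole, of 24 females of the inbred C57BL/6 strain, with 6 mice per stage and a separate library for each mouse. The stages were untreated adults of 10 weeks of age (W10), pregnancy at day 18 (P18), lactation at day 7 (Lac7) and involution at day 3 (Inv3), when milk removal has stopped and the gland regresses. Days are those of the sample labels, since the text on the design of the series exchanges the days of lactation and involution.

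A miRNA guides a silencing complex to messenger RNAs that pair with its seed, the bases near its 5′ end. The hairpin of miR-378a lies in an intron of Ppargc1b, the gene of a transcriptional coactivator that drives mitochondrial biogenesis and fatty acid oxidation, and gives a mature miRNA from each of its arms. Both arms are known as regulators of mitochondrial and fatty acid metabolism. miR-378a-3p is known to repress Crat, an enzyme of fatty acid metabolism, and miR-378a-5p to repress Med13, a subunit of the Mediator complex that links nuclear receptors to transcription. miR-378b, miR-378c and miR-378d come from hairpins elsewhere in the genome and are nearly the same in sequence. The mammary gland is an adipose fat pad that holds a tree of epithelial ducts in the adult. In pregnancy this tree branches further and forms alveoli, which secrete milk in lactation and regress in involution.

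The mature sequences of miR-378b, miR-378c and miR-378d are shown because their likeness sets how well reads can be told apart. They were taken from RefSeq on GRCm38.p6, which matched 3 of the 5 members, and are written 5′ to 3′ with the seed (bases 2 to 8) in capitals.
miR-378b: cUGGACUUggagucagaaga
miR-378c: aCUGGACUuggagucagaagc
miR-378d: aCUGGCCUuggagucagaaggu
miR-378b has 20 bases and lies at chr11:88352839-88352858 on the plus strand. miR-378c has 21 bases at chr14:46954905-46954925 on the minus strand, and miR-378d has 22 bases at chr10:126710355-126710376 on the minus strand. miR-378b starts 1 base later than miR-378c. Over the 20 bases that then line up, 19 are identical and the last is not, which is A20C counted from the 5′ end of miR-378b (base of miR-378b, position, base of miR-378c). The pair therefore shares a run of 19 bases, and its seeds differ by the shift of 1 base. miR-378d differs from miR-378c by A6C, which falls in the seed, and by C21G, both counted from the 5′ end of miR-378c. A read trimmed by a base at its 3′ end can match both miR-378b and miR-378c, and how the authors' counting divided such reads is not given in the sources used here, so the levels of these members are uncertain to that extent. The sequences of miR-378a-3p and miR-378a-5p were not among those matched, so their likeness to the other members was not compared. Whether reads of miR-378a-3p were counted as another member, or the reverse, was therefore not tested.

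Values are reads per 1e6 reads on miRNAs (RPM), which the authors scaled to an equal total in each library. A miRNA's RPM therefore also depends on the reads taken by all others. Whole reads could be recovered from the values, and 660346 to 1165321 reads were counted per library, with the lowest stage median at Lac7 (693166.5). A count of 0 then allows up to 2.57 to 4.54 RPM (3 reads, counting error only). Epithelial miRNAs, the markers of the tissue, were present at every stage. The summed RPM of a list of 10 epithelial miRNAs was 23864 ± 2156 in W10, 67819 ± 5561 in P18, 135764 ± 8617 in Lac7 and 55493 ± 25968 in Inv3 mice (SD, n = 6 here and below). A list of 6 skeletal muscle miRNAs summed to 11363 ± 7944 RPM at W10, with a range from 2382 to 24032, and to means of 983, 2061 and 381 RPM at P18, Lac7 and Inv3. Muscle lies next to the gland and is a known site of miR-378a, so these values are given again beside the comparisons with W10. In whole tissue, fewer cells of a type and less RNA per cell cannot be told apart.

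miR-378a-3p made up most of the family in every mouse. The 5 members summed to 1491 ± 385 RPM in W10, 596 ± 92.8 in P18, 1020 ± 146 in Lac7 and 618 ± 73.5 in Inv3 mice. The share of miR-378a-3p in that sum was 84.2% ± 2.39 in W10, 85.8% ± 1.14 in P18, 79.5% ± 1.82 in Lac7 and 81.5% ± 3.30 in Inv3 mice. miR-378c followed with means from 7.25% to 9.96%, and miR-378a-5p with means from 4.04% to 4.72%. miR-378b held 2.01% and 2.10% at W10 and P18, but 6.27% and 4.24% at Lac7 and Inv3. miR-378d held at most 0.615% in any mouse at Inv3 and 0.544% at Lac7. These shares compare reads and not molecules, since miRNAs of different sequence can be captured to different degrees.

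miR-378a-3p, the strand that gives most of the reads of the family, had its highest values in adult glands. At W10 its lowest, median and highest mice were at 845, 1173 and 1825 RPM. At P18 they were at 357, 532 and 585 RPM, at Lac7 at 669, 764 and 995 RPM, and at Inv3 at 435, 504 and 570 RPM. Every W10 mouse was therefore above every P18 and Inv3 mouse, and every Lac7 mouse was above every P18 and Inv3 mouse, while W10 and Lac7 overlapped. Its stage mean ranked 61st of 1009 miRNAs at W10, and 83rd, 66th and 80th at P18, Lac7 and Inv3. Of the 24 mice, 21 were at or above 500 RPM, a level the study applied to whole stages when it matched miRNAs with hormone treatments. Between 365 and 1692 reads per library lay behind these values, the most of any member.

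miR-378a-5p, from the other arm of the same hairpin, was less abundant, with stage means of 5.11% to 5.52% of the RPM of miR-378a-3p. Its lowest, median and highest values were 46.3, 61.9 and 83.9 RPM at W10, 18.1, 30.1 and 35.2 RPM at P18, 24.02, 42.8 and 47.8 RPM at Lac7, and 16.2, 24.8 and 42.9 RPM at Inv3. All W10 mice exceeded all P18 and Inv3 mice, and the other pairs of stages overlapped. Only 16 to 96 reads per library were counted, which makes single values coarse.

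miR-378b showed another order of the stages, with its highest values in lactation. The lowest, median and highest mice were at 23.7, 28.9 and 31.8 RPM at W10, at 8.68, 12.4 and 16.6 RPM at P18, at 50.54, 62.6 and 77.6 RPM at Lac7, and at 9.90, 25.7 and 49.9 RPM at Inv3. The lowest Lac7 mouse was above the highest mouse of each other stage. The Inv3 mice were spread widely, at 15.5, 9.90, 36.6, 25.6, 25.7 and 49.9 RPM in mice 1 to 6, a coefficient of variation of 53.1% against 10.4% at W10, and they overlapped W10 and P18. Its reads per library ran from 8 to 58.

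miR-378c, the next most abundant member, also had its highest mean at W10 and its lowest at P18. Its lowest, median and highest values were 108, 132 and 188 RPM at W10, 29.2, 45.2 and 54.0 RPM at P18, 79.6, 96.9 and 136 RPM at Lac7, and 54.9, 58.8 and 72.0 RPM at Inv3. W10 and Lac7 overlapped, and both lay above all P18 and Inv3 mice. All Inv3 mice were above all P18 mice, by a narrow margin. Between 34 and 174 reads per library were counted.

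miR-378d could not be measured at this depth. It had 35 reads in all 24 libraries together, 0 in 7 of them and at most 4 in any. Stage means of 1.67, 0.893, 2.81 and 1.45 RPM at W10, P18, Lac7 and Inv3 are at or below what a count of 0 allows, so no fold is read from its values in the comparisons of stages, and no difference between stages passed in the fit of all 24 libraries (limma adjusted p from 0.097 to 0.70).

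**Figure D1:**
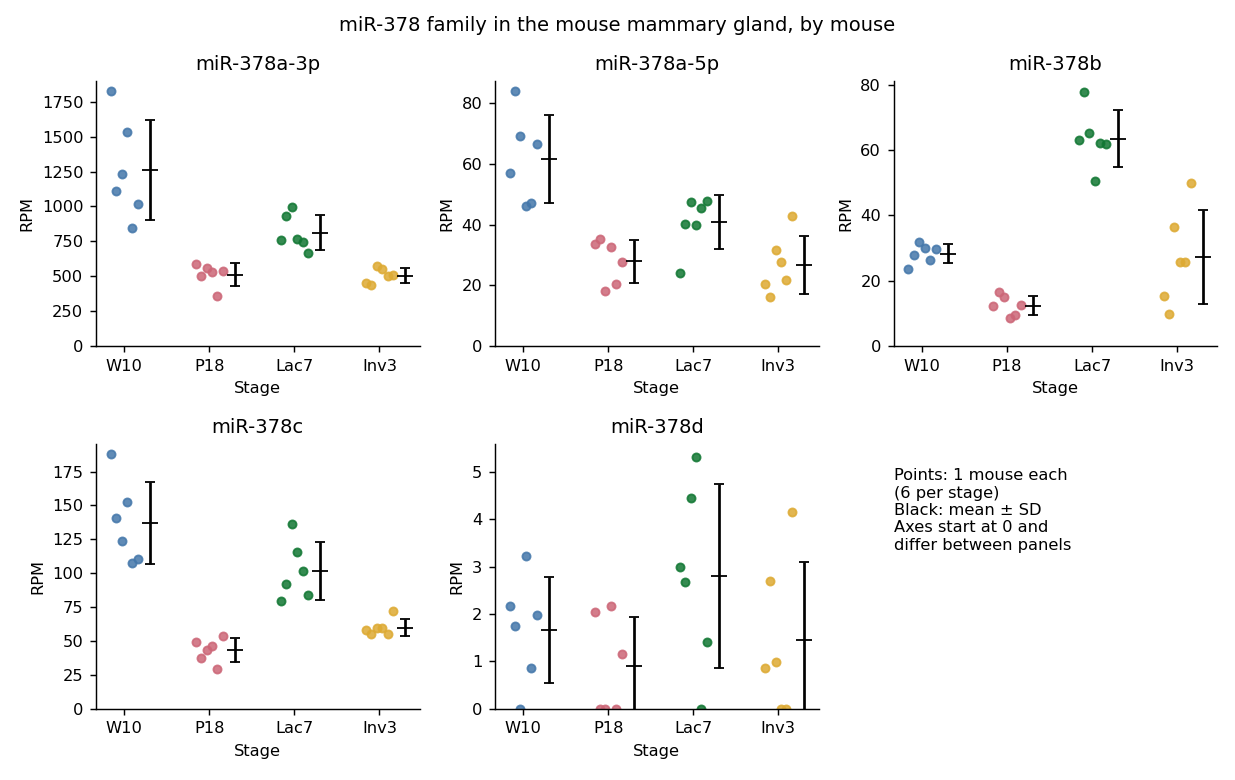
RPM of the 5 members (vertical axes, which start at 0 and differ between panels) at the 4 stages, 1 point per mouse, with mean and SD in black (SD bars of miR-378d end at 0). miR-378a-3p, miR-378a-5p and miR-378c have their highest means at W10, and miR-378b at Lac7 (63.4 RPM).

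From adult to late pregnancy, 4 of the 5 members fell, those of both arms of miR-378a together with miR-378b and miR-378c. A miRNA was called changed with a limma adjusted p under 0.05 over the 544 miRNAs tested and a log2 fold change of at least 1 on the log2(RPM + 1) scale. Of all tested miRNAs 20.0% were called lower and 7.54% higher, with a median log2 change of -0.32, and against this the members had 4 lower and 0 higher. miR-378a-3p went from a mean of 1262 ± 359 to 511 ± 80.8 RPM, a log2 fold change of -1.27 (SE 0.16, adjusted p = 2.4e-07). miR-378c went from 137 ± 30.2 to 43.3 ± 8.87 RPM, with the largest change of the members at -1.64 (SE 0.18, adjusted p = 2.6e-08). miR-378a-5p changed by -1.12 (SE 0.24, adjusted p = 0.0003) and miR-378b by -1.15 (SE 0.27, adjusted p = 0.0008), and in all 4 each P18 mouse was below each W10 mouse, as in 16.9% of all tested miRNAs. After scaling by DESeq2 size factors, which shifts the median of all miRNAs by 0.20, miR-378a-5p (-0.88) and miR-378b (-0.91) no longer reached the fold size, although their adjusted p stayed at 0.0031 and 0.0069, and 2 members were called lower, beside 14.0% of all miRNAs under that scaling.

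The other cell types of the gland also moved between W10 and P18. Of the 10 epithelial miRNAs 8 were called higher and 0 lower, among them miR-200a-3p (from 8547 to 34289 RPM) and miR-200b-3p (from 4675 to 14365 RPM), which keep cells epithelial. Of 8 miRNAs linked to adipose tissue 0 were called higher and 3 lower, among them miR-365-3p, a brown fat miRNA, from 602 to 161 RPM. Others of that list did not follow, as miR-103-3p was at 34069 and 36768 RPM and miR-27b-3p at 13694 and 26997 RPM. Leukocyte miRNAs were called higher in 0 and lower in 4 of 6 cases, and miR-142a-5p went from 31988 to 13925 RPM. Of 5 tested skeletal muscle miRNAs 0 were called higher and 3 lower, namely miR-133a-3p (9618 to 775 RPM), miR-1a-3p (1196 to 153 RPM) and miR-133b-3p (479 to 28.2 RPM). With only the W10 mice numbered 3 and 7, whose muscle list summed to 2382 and 3719 RPM, the same 4 members were called lower, beside 13.2% of all miRNAs in that fit, miR-378a-3p by -1.15 (limma adjusted p = 9.0e-05) and miR-378c by -1.44 (adjusted p = 0.0001). That selection was made after the data were seen and leaves 2 W10 libraries, which are assumed to vary like the rest, and their muscle sums are still in or above the upper range of the P18 mice (195 to 2421 RPM). The part of muscle, fat, leukocytes and epithelium in these changes was not tested.

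Between late pregnancy and lactation miR-378b and miR-378c rose, against a background of 7.54% of miRNAs called higher and 22.6% lower, and a median log2 change of -0.34. miR-378b went from 12.4 ± 3.05 to 63.4 ± 8.66 RPM, 5.11 times higher (log2 fold change 2.28, SE 0.27, adjusted p = 7.5e-08). miR-378c went from 43.3 ± 8.87 to 102 ± 21.4 RPM, 2.35 times higher (1.21, SE 0.18, adjusted p = 2.3e-06). miR-378a-3p was 1.59 times higher in the mean (0.67, SE 0.16, adjusted p = 0.0009), with all 6 Lac7 mice above all P18 mice (so too in miR-378b and miR-378c, and in 9.93% of all miRNAs), but stayed under the fold size set for a call. miR-378a-5p had a log2 fold change of 0.54 (SE 0.24) and an adjusted p of 0.067, which was 0.83 with an adjusted p of 0.0035 under size factors, 0.71 (0.014) with edgeR and 0.86 (0.00098) with DESeq2. Epithelial miRNAs were called higher in 6 cases and lower in 1 of 10, while 0 muscle miRNAs were called. Of the 8 adipose miRNAs 2 were called lower and 0 higher, but the median log2 change of that list was 0.37. Its summed RPM rose from 65195 ± 3645 to 92702 ± 6873, and miR-103-3p, its most abundant member, went from 36768 to 53504 RPM.

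From lactation to involution miR-378b fell and was the only member called, where 10.3% of all miRNAs were called lower and 16.5% higher and the median log2 change was 0.28. It went from 63.4 ± 8.66 to 27.2 ± 14.4 RPM (log2 fold change -1.35, SE 0.27, adjusted p = 0.0001). miR-378a-3p (-0.68, SE 0.16, adjusted p = 0.0008) and miR-378c (-0.73, SE 0.18, adjusted p = 0.0011) were lower in every Inv3 mouse than in any Lac7 mouse but under the fold size, and with miR-378b made 3 members without overlap, beside 11.2% of all miRNAs. miR-378a-5p changed by -0.62 (SE 0.24, adjusted p = 0.033) with overlapping mice. Epithelial miRNAs were called lower in 7 of 10 cases and higher in 1. All 6 leukocyte miRNAs and 5 of 8 stromal ones were called higher, the opposite direction to miR-378b.

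Against adult glands, lactating glands had more miR-378b, while the differences of miR-378a and miR-378c passed on the RPM scale only. Here 10.5% of all miRNAs were called higher and 39.7% lower, with the most negative median of the 6 comparisons (-0.66). miR-378b was the 1 member called, 2.24 times higher at Lac7 than at W10 (log2 fold change 1.13, SE 0.27, adjusted p = 0.0006), with all Lac7 mice above all W10 mice, as in 12.3% of miRNAs. miR-378a-3p (-0.60, adjusted p = 0.0016), miR-378a-5p (-0.59, adjusted p = 0.031) and miR-378c (-0.43, adjusted p = 0.034) were lower on the RPM scale with overlapping mice. With size factors, under which the median of all miRNAs moved up by 0.35, the same differences were -0.05 (adjusted p = 0.82), -0.04 (0.88) and 0.12 (0.55), which turns the sign of miR-378c and leaves none of the 3 past the test, while miR-378b was at 1.67 (limma adjusted p = 3.4e-06) and 17.3% of miRNAs were called higher. With the 2 W10 mice low in muscle miRNAs, miR-378b was also called (1.006, adjusted p = 0.042), beside 9.38% of miRNAs called higher. In that fit miR-378a-3p was still lower (-0.48, limma adjusted p = 0.035), while miR-378a-5p had an adjusted p of 0.071 and miR-378c of 0.45.

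Involuting glands had less of miR-378a and miR-378c than adult glands. Of all miRNAs 5.51% were called higher and 19.5% lower, with a median of -0.41, and 3 members were called lower, each with all Inv3 mice below all W10 mice, as in 12.1% of miRNAs. miR-378a-3p was at -1.28 (SE 0.16, adjusted p = 4.9e-07), miR-378a-5p at -1.21 (SE 0.24, adjusted p = 0.0002) and miR-378c at -1.16 (SE 0.18, adjusted p = 8.8e-06). Size factors brought these to -0.91, -0.84 and -0.79, below the fold size and still with adjusted p of 5.1e-05, 0.0062 and 0.0007. Without the W10 mice high in muscle miRNAs, miR-378a-3p (-1.16) and miR-378a-5p (-1.38) were called and miR-378c (-0.96) was not, beside 10.3% of miRNAs called lower. miR-378b differed by -0.22 (SE 0.27, adjusted p = 0.53).

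Between pregnancy and involution 0 members were called by limma, beside 4.41% of miRNAs called higher and 9.74% lower. At an adjusted p under 0.05 without the fold size there were 2, beside 10.8% of miRNAs higher by that rule, and the same 2 had an unadjusted p under 0.05. They were miR-378b (0.93, SE 0.27, adjusted p = 0.0095) and miR-378c (0.48, SE 0.18, adjusted p = 0.042), both higher at Inv3. In miR-378c all Inv3 mice were above all P18 mice, as in 4.23% of miRNAs. With size factors miR-378b was called (1.05), beside 5.15% of miRNAs called higher. miR-378a-3p had means of 511 and 503 RPM and a log2 fold change of -0.01 (SE 0.16, adjusted p = 0.97), and its sign turned with the scaling.

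**Figure D2:**
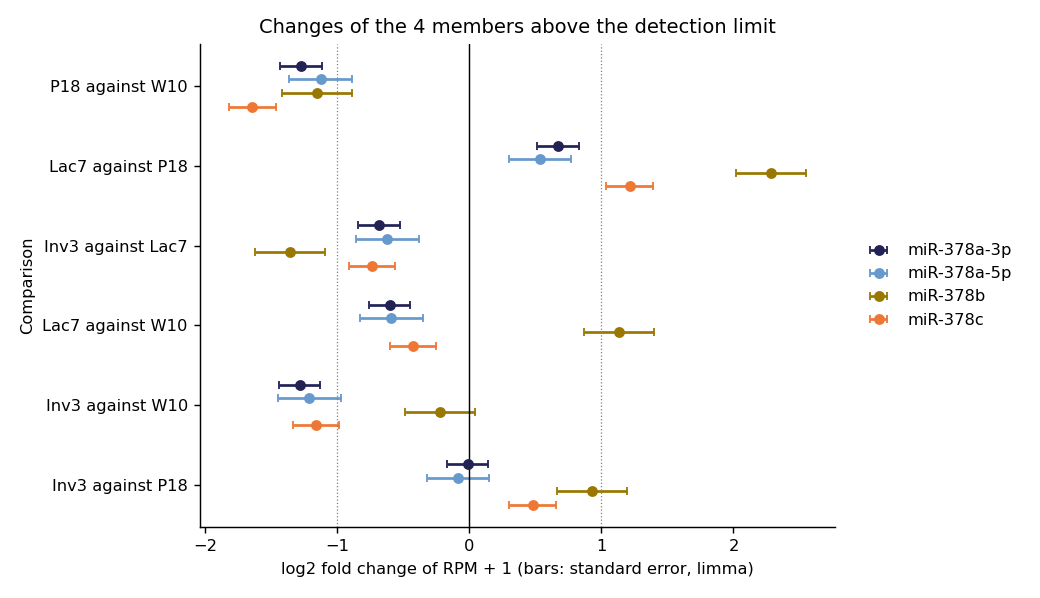
Log2 fold changes of RPM + 1 (horizontal axis) with limma standard errors as bars, for 4 members (colours) in the 6 comparisons of stages (vertical axis), with dotted lines at the fold size used for calls. miR-378b stands to the right of the other members at Lac7 against P18 (2.28) and at Lac7 against W10 (1.13).

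The locus in Ppargc1b was then set against the others within each mouse, which needs no scaling between libraries apart from the 1 RPM added to each value. How the counting divided reads between miR-378a-3p and the other loci was not tested, and the ratios are uncertain to that extent. In the GENCODE annotation of GRCm38, Mir378a lies on chromosome 18 from 61397835 to 61397900 on the minus strand, in an intron of Ppargc1b and on the same strand as it. Mir378b (chromosome 11, 88352773 to 88352864) lies in an intron of Msi2, and Mir378c (chromosome 14, 46954830 to 46954928) in an intron of Samd4, each on the strand opposite to the gene. Mir378d lies on chromosome 10 from 126710282 to 126710391 between annotated genes. Of the hairpins, Mir378a alone is annotated on the strand of a gene around it.

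No difference between stages was found in the proportion of the arms of miR-378a. miR-378a-5p was at 5.24% ± 1.82 of miR-378a-3p in W10, 5.52% ± 1.28 in P18, 5.11% ± 1.39 in Lac7 and 5.28% ± 1.69 in Inv3 mice. The log2 ratio differed between consecutive stages by 0.15 (two-sided exact permutation test, p = 0.63), -0.13 (p = 0.56) and 0.06 (p = 0.79). The 95% intervals of these differences were -0.46 to 0.76, -0.63 to 0.37 and -0.44 to 0.58, and a difference of a size within them is not excluded. Reads of miR-378a-5p were few (16 to 96 per library), and their part in the width of these intervals was not tested.

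miR-378b rose more than miR-378a-3p at lactation. It was at 2.40% ± 0.666 of miR-378a-3p in W10, 2.45% ± 0.569 in P18, 7.89% ± 1.08 in Lac7 and 5.29% ± 2.65 in Inv3 mice. The step from P18 to Lac7 was 1.61 on the log2 scale (95% interval 1.25 to 1.96), a 3.06-fold gain, with all 6 Lac7 mice above all P18 mice (exact permutation p = 0.0022, the smallest these groups allow, adjusted p = 0.026 over 12 ratio tests). From Lac7 to Inv3 the ratio differed by -0.67 (-1.31 to -0.04), with 5 of 6 Inv3 mice below all Lac7 mice and mouse 6 above them (exact permutation p = 0.039, adjusted p = 0.12), which fails the correction. W10 and P18 differed by 0.12 (-0.37 to 0.64, exact permutation p = 0.62).

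miR-378c changed less against miR-378a-3p. It was at 11.1% ± 1.28 in W10, 8.45% ± 0.936 in P18, 12.6% ± 2.02 in Lac7 and 11.99% ± 1.51 in Inv3 mice. It fell by 0.37 on the log2 scale from W10 to P18 (interval -0.57 to -0.17, exact permutation p = 0.0065, adjusted p = 0.026), with 5 of 6 P18 mice below all W10 mice. It rose by 0.54 from P18 to Lac7 (0.29 to 0.80, exact permutation p = 0.0043, adjusted p = 0.026), with 5 of 6 Lac7 mice above all P18 mice. Lac7 and Inv3 differed by -0.05 (-0.32 to 0.22, exact permutation p = 0.68). The ratios of miR-378d, with 0 to 4 reads behind each, showed no difference that passed (adjusted p from 0.26 to 1.0).

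**Figure D3:**
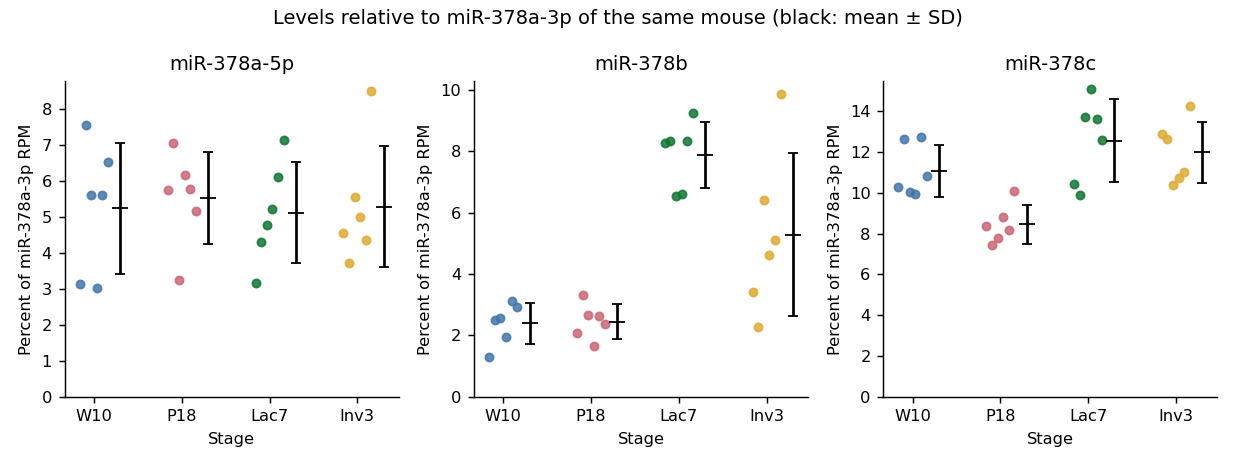
Level of miR-378a-5p, miR-378b and miR-378c as a percent of miR-378a-3p in the same mouse (vertical axes), by stage, 1 point per mouse, with mean and SD in black. miR-378a-5p has stage means from 5.11% to 5.52%, miR-378b has all Lac7 mice above all W10 and P18 mice, and miR-378c has its lowest mean at P18 (8.45%).

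Mice of a stage also differed among themselves, and 6 relations of miR-378a-3p were computed after subtracting the stage means (24 mice, permutation of mice within stages). miR-378c varied together with miR-378a-3p, with a Pearson r of 0.77 (permutation p = 0.00015, adjusted p = 0.0009) and a Spearman rho of 0.68 (permutation p = 0.0017, adjusted p = 0.0051). Without the 2 most distant mice r was 0.69, and by stage it was 0.93, 0.88, 0.60 and 0.27 in W10, P18, Lac7 and Inv3 mice. miR-378a-5p, from the same hairpin, gave r = 0.19 and rho = 0.14 (permutation p = 0.38 and 0.51, adjusted p = 0.45 and 0.61, and r = 0.16 without the 2 mice). miR-378b gave r = 0.28 and rho = 0.46 (permutation p = 0.065 and 0.017, adjusted p = 0.13 and 0.034, and r = 0.41 without the 2 mice), and with size factors its rho was 0.31 (permutation p = 0.13, adjusted p = 0.25) and no longer passed. miR-378d gave r = 0.27 and rho = 0.26 (permutation p = 0.20 and 0.24, adjusted p = 0.30 and 0.36, and r = 0.24 without them). All of these members are counted from the same libraries and scaled to the same total. Whether reads of miR-378a-3p and miR-378c were counted for each other was not tested, so their relation may not be one of separate loci.

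Within stages no relation of miR-378a-3p to the muscle miRNAs was found. The relation to the summed muscle list had r = 0.08 and rho = 0.08 (permutation p = 0.70 and 0.72, adjusted p the same, and r = 0.15 without the 2 mice), and by stage r was 0.18, -0.10, 0.25 and -0.24. The W10 mouse with the most muscle miRNAs (mouse 4, 24032 RPM) had 1533 RPM of miR-378a-3p, while mouse 5, with 15318 RPM, had the least at 845 RPM. The relation to the summed epithelial list was positive, with r = 0.39 and rho = 0.68 (permutation p = 0.00073 and 0.00025, adjusted p = 0.0022 and 0.0015, and r = 0.42 without the 2 mice). By stage r was 0.91, 0.09, 0.95 and 0.82 in W10, P18, Lac7 and Inv3 mice, each over 6 mice. With size factors r was 0.32 and rho 0.45 (permutation p = 0.041 and 0.033, adjusted p = 0.12 and 0.098), so this relation did not pass under that scaling. In the wide range of the Inv3 mice, mice 3 and 6 had the highest epithelial sums (81591 and 86488 RPM) and the highest miR-378b. Mice 1 and 2 had the lowest sums (32885 and 29563 RPM) and the lowest miR-378b. Mice 4 and 5 had nearly the same miR-378b (25.6 and 25.7 RPM) at epithelial sums of 67180 and 35250 RPM. The relation of miR-378b to the epithelial list was not tested.

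**Figure D4:**
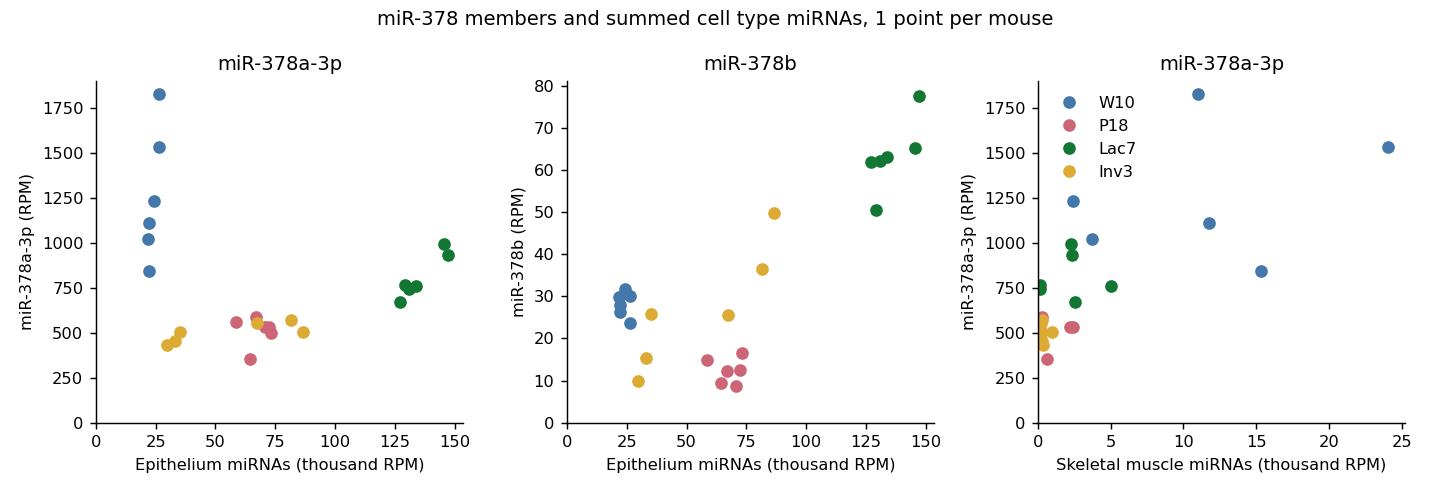
Summed RPM of the epithelial or skeletal muscle miRNAs (horizontal axes) against the RPM of miR-378a-3p or miR-378b (vertical axes), 1 point per mouse, coloured by stage. The W10 mice hold the highest miR-378a-3p at the lowest epithelial sums, and the Lac7 mice the highest miR-378b at the highest epithelial sums.

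Over all 24 libraries, 281 miRNAs averaging 10 RPM or more were ranked by the likeness of their profile to that of miR-378a-3p. The closest outside the family were miR-26a-5p (Pearson r = 0.82), miR-1843a-5p@ (0.80), miR-30e-5p (0.77), miR-30d-5p (0.72) and miR-664-3p (0.72). miR-26a-5p had means of 6704, 4634, 5380 and 4316 RPM at W10, P18, Lac7 and Inv3, the same order as miR-378a-3p with smaller steps. miR-664-3p was at 66.8 RPM at W10 and at 15.9 to 24.7 RPM later. Within the family the corresponding r with miR-378a-3p was 0.92 for miR-378c, 0.77 for miR-378a-5p, 0.46 for miR-378b and 0.33 for miR-378d. These values describe profiles over libraries that share stage, depth and scaling, and those within the family also depend on how reads were divided between members.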

How the data were processed

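Small RNA of 24 mouse mammary glands (mirVana, QIAseq miRNA libraries) was assigned by the authors to miRBase 22 with QuickMIRSeq. Their processing notes name cutadapt, Trimmomatic 0.36, FastQC, MultiQC and GRCm38. The use of molecular identifiers is not given in the sources used here. Methods name a NextSeq 500 and legends another Illumina sequencer. The authors deposited RPM values, from which whole reads were recovered (at least 99.6% of values per library within 0.1 read). The 544 miRNAs averaging 1 RPM or more at any stage were fitted over 24 libraries with limma 3.58.1 (trend, two-sided) in R 4.3.3 on log2(RPM + 1), which understates the folds of low miRNAs. Calls needed a log2 fold change of 1 or more in size and an adjusted p (Benjamini-Hochberg) under 0.05. The fit was tested on simulated data. Ratios to miR-378a-3p used two-sided exact permutation over 6 against 6 mice, adjusted over 12 tests. Relations used 100000 permutations within stages. Named were all members, the 5 miRNAs outside the family closest to miR-378a-3p, and the most abundant markers of each list. As alternatives, pseudocounts of 0.1 and 10, no filter or one at 100 RPM, size factors, fits of 12 libraries, edgeR 4.0.16 and DESeq2 1.42.0 on recovered reads, a replicate block and each mouse left out were run.

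The members and lists were chosen with earlier results of these data known. Of the markers of 4 further lists, red blood cell miRNAs were called higher in 0, 1 and 0 and lower in 2, 0 and 1 of 4 (P18 against W10, Lac7 against P18, Inv3 against Lac7), leukocyte miRNAs higher in 0, 0 and 6 and lower in 4, 5 and 0 of 6, stromal miRNAs higher in 0, 0 and 5 and lower in 2, 4 and 0 of 8, and endothelial miRNAs in 0 of 2. The adipose list was called higher in 1 and lower in 2 of 8 at Inv3 against Lac7, and the muscle list higher in 0 and lower in 2 of 5. Mice were separate animals with 1 library each.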

Additional observations from a re-analysis of the deposited data

Results flagged for a closer look

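3 values were flagged because 1 mouse stood apart from the other 5 of its stage by Dixon's test. miR-378a-3p was at 357.02 RPM in P18 mouse 5, below the 500.18 RPM of the next. miR-378a-5p was at 24.02 RPM in Lac7 mouse 1, below the 39.90 RPM of the next. miR-378c was at 72.02 RPM in Inv3 mouse 6, above the 59.39 RPM of the next. Chance flags about 1 in 20 groups, and 20 groups were tested.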

How the results depend on the processing

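Of the fold changes of single members under the alternatives, 577 kept their direction and their side of the threshold, 20 lost the call, 7 gained it and 23 turned sign. The members called lower at P18 against W10 numbered 2 with a pseudocount of 10, a filter at 100 RPM (which leaves 2 members), size factors, edgeR or DESeq2. At 100 RPM 1 member was called at Lac7 against P18, and 0 at Inv3 against Lac7 and at Lac7 against W10, where a pseudocount of 10 also gave 0. At Inv3 against W10, 0 were called with size factors, edgeR or DESeq2, which lowered the 3 called changes below the fold size. At Inv3 against P18, 1 (miR-378b) was called with size factors, edgeR or DESeq2, and leaving out 1 mouse gave 0 to 1, with 1 called without P18 mouse 2, Inv3 mouse 1 or Inv3 mouse 2.

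Signs turned where changes were small. With size factors, edgeR and DESeq2, miR-378c at Lac7 against W10 was at 0.12, 0.019 and 0.12, miR-378b at Inv3 against W10 at 0.14, 0.32 and 0.28, miR-378a-3p at Inv3 against P18 at 0.12, 0.089 and 0.11, and miR-378a-5p there at 0.039, 0.031 and 0.041. Leaving out 1 mouse gave -0.43 to 0.017 for miR-378b at Inv3 against W10, and at Inv3 against P18 -0.11 to 0.030 for miR-378a-3p, -0.23 to 0.041 for miR-378a-5p and 0.72 to 1.17 for miR-378b. The fitted values of miR-378d, which rest on 0 to 4 reads and are no measure of a fold, were at Inv3 against W10 0.09 with edgeR, 0.078 with DESeq2 and 0.23 with the 2 W10 mice low in muscle miRNAs, and at Lac7 against P18 from 0.79 to 1.32 with 1 mouse left out, past the test without Lac7 mouse 5 (adjusted p = 0.021). The cause of these shifts was not tested. Size factors split the calls higher and lower into 48 and 76, 59 and 91, 84 and 69, 94 and 158, 40 and 63, and 28 and 40 in the order P18 against W10, Lac7 against P18, Inv3 against Lac7, Lac7 against W10, Inv3 against W10 and Inv3 against P18.

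Of the ratios to miR-378a-3p, leaving out 1 mouse gave -0.081 to 0.17 for miR-378a-5p at Inv3 against Lac7, -0.043 to 0.22 for miR-378b at P18 against W10 (-0.043 without W10 mouse 1), -0.88 to -0.47 for miR-378b and -0.12 to 0.0028 for miR-378c at Inv3 against Lac7, and -0.32 to 0.23 for miR-378d. A pseudocount of 10 gave 0.48 for miR-378b at P18 against W10 (exact permutation p = 0.037), and -0.39 for miR-378b and 0.013 for miR-378c at Inv3 against Lac7. It gave 1.16, -0.44 and 0.51 for miR-378d in the 3 consecutive comparisons, where 0.1 gave -0.20 at P18 against W10. By unadjusted p, the gain of miR-378b at Lac7 against P18 passed in every alternative run. The exact permutation test of the replicate block, with 6 pairs, allows no p under 0.031. The relation of miR-378a-3p to the epithelial list had r = 0.32 with size factors.

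No pairing by mouse number was seen: over 158 miRNAs, deviations from stage means had a mean correlation of -0.046 in 33 same-numbered pairs and 0.0038 in 183 others. Such means cannot exclude a pairing or a shared batch. A replicate block left the members called at 4, 2, 1, 1, 3 and 0 in the 6 comparisons. The ratios under the block were judged by unadjusted exact permutation p. miR-378b at Inv3 against Lac7 was at -0.67 (p = 0.094), a difference that had already failed the correction in the main test (adjusted p = 0.12). miR-378c at P18 against W10 was at -0.43 (p = 0.063, the smallest its 5 pairs allow). No other ratio changed its side of 0.05. Depth limits miR-378d, and reads of miR-378a-5p and miR-378b are few.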
